A study of Mus musculus with 7 samples.

Results

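Expression of 10 transcription factor genes that direct the fate of dendritic cells was examined in CD11c-positive spleen cells: Irf4, Irf8, Batf3, Id2, Zbtb46, Tcf4, Spib, Bcl6, Ikzf1 and Spi1 (listed as Sfpi1, its older symbol). The members were taken by function, and every probe set annotated to 1 of these genes alone was used. All 10 genes were measured, by 22 probe sets in all, of 12393 genes that the array's probe sets name alone. The arrays compared 4 samples labelled WT (C57BL/6J) with 3 labelled Atg16L1 hypomorphic (C57BL/6J), a line in which the autophagy gene Atg16l1 keeps part of its function. All mice were allo-HSCT recipients, meaning that they had received hematopoietic stem cells from a genetically different donor, with spleens collected at day 7 post transplant, at 9 weeks of age per the sample protocol or 8 weeks per the series description. The sources used here do not give which of donor and recipient carried the labelled genotype, nor the conditioning, nor whether every array stands for an animal of its own. The p-values therefore measure the spread between these 7 samples alone, which may be technical. Cells were enriched with magnetic beads for CD11c, an integrin carried by dendritic cells and also by some macrophages and lymphocytes.

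Dendritic cells arise from progenitors that need high PU.1 (the product of Spi1) and Ikaros (the product of Ikzf1), and they split into conventional and plasmacytoid cells. Among conventional cells, the CD8 lineage, which cross-presents antigen to CD8 T cells, depends on Irf8, Batf3, Id2 and Bcl6, whereas the CD11b lineage depends more on Irf4. Plasmacytoid cells, the main makers of type I interferon, are held in their fate by the E protein E2-2 (the product of Tcf4), which Id2 opposes, and by Spi-B. Most of these factors also work in other blood cells, so their signal in an enriched cell mixture is not that of dendritic cells alone.

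The values were log2 expression values as deposited, 1 per probe set and array, with array medians from 5.46 to 5.53 and lower quartiles from 3.31 to 3.39. Each array's correlations with the rest averaged 0.990 to 0.993. Being taken over all probe sets, these correlations cannot show whether an array stood apart for some of the genes. The Atg16l1 probe set had a wild-type mean of 7.30 ± 0.0924 (SD, n = 4) and a hypomorph mean of 6.86 ± 0.0912 (SD, n = 3), without overlap. The number of arrays limits the precision. Of the shared dendritic cell markers, Itgax (CD11c itself) read between 7.98 and 8.48 and Flt3 between 6.28 and 6.99 on the 7 arrays, and H2-Aa read 11.86 to 12.41. Among markers of single lineages, Xcr1 of the CD8 lineage read 3.73 to 4.57, below the median of every array, and Cd209a of the CD11b lineage 2.90 to 3.39, below the lower quartile of 6 arrays. Other markers of these lineages were brighter. The mean log2 level was 6.07 to 6.50 for the CD8 lineage list and 6.15 to 6.48 for the CD11b lineage list, above the array medians on all 7 arrays. The mean level of 8 plasmacytoid cell markers, at 4.60 to 5.30, lay below those medians on all 7 arrays. Several marker lists of other cells had mean levels above the array medians on all 7 arrays, whereas that of 11 B cell markers (4.07 to 4.71) lay below them. The mean log2 level of 11 red pulp macrophage markers ran from 10.34 to 11.49, that of 11 neutrophil markers from 10.20 to 11.37, that of 8 T cell markers from 6.79 to 7.58 and that of 9 erythroid markers from 5.97 to 8.54.

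No member passed the test over all probe sets. In the limma fit, 0 of the 22 member probe sets had an adjusted p under 0.05, as did 0 of 22625 (0%) over the whole array. Unadjusted p was under 0.05 for 4 member probe sets, of which 3 read higher and 1 lower in the hypomorph, against 7.69% of all probe sets (4.35% higher, 3.34% lower). The arrays of the groups did not overlap for 3 member probe sets, 1 each of Irf4 and Id2 (higher) and that of Spib (lower), against 5.57% of all (3.07% higher, 2.5% lower). The 22 differences had a median of 0.05 on the log2 scale, with 13 above 0 and 9 below, and ran from -0.52 for Spib to 0.48 for Id2. Over all probe sets the median was 0.00, and 50.7% were above 0. None of the cell type marker lists had a member with an adjusted p under 0.05 in limma, but some lists lay largely on 1 side of 0. In the hypomorph, 11 of 11 neutrophil, 5 of 5 basophil and mast cell, 8 of 9 erythroid and 8 of 9 monocyte markers had negative differences, with medians of -0.53, -1.06, -0.71 and -0.16, and 11 of 11 red pulp macrophage markers had positive ones, with a median of 0.25. Positive differences were also found for 5 of 5 plasma cell and 7 of 8 CD11b lineage markers, with medians of 0.28 and 0.19. Without overlap between the groups were 4 basophil and mast cell markers, 1 red pulp macrophage marker and 0 markers of the other lists named here. The mean level did not overlap for the basophil and mast cell list and the plasma cell list, and overlapped for the others. The part of these cell types in the members' values was not tested. Because the array measures a mixture, fewer cells of a type and less RNA per cell cannot be told apart.

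**Figure D1:**
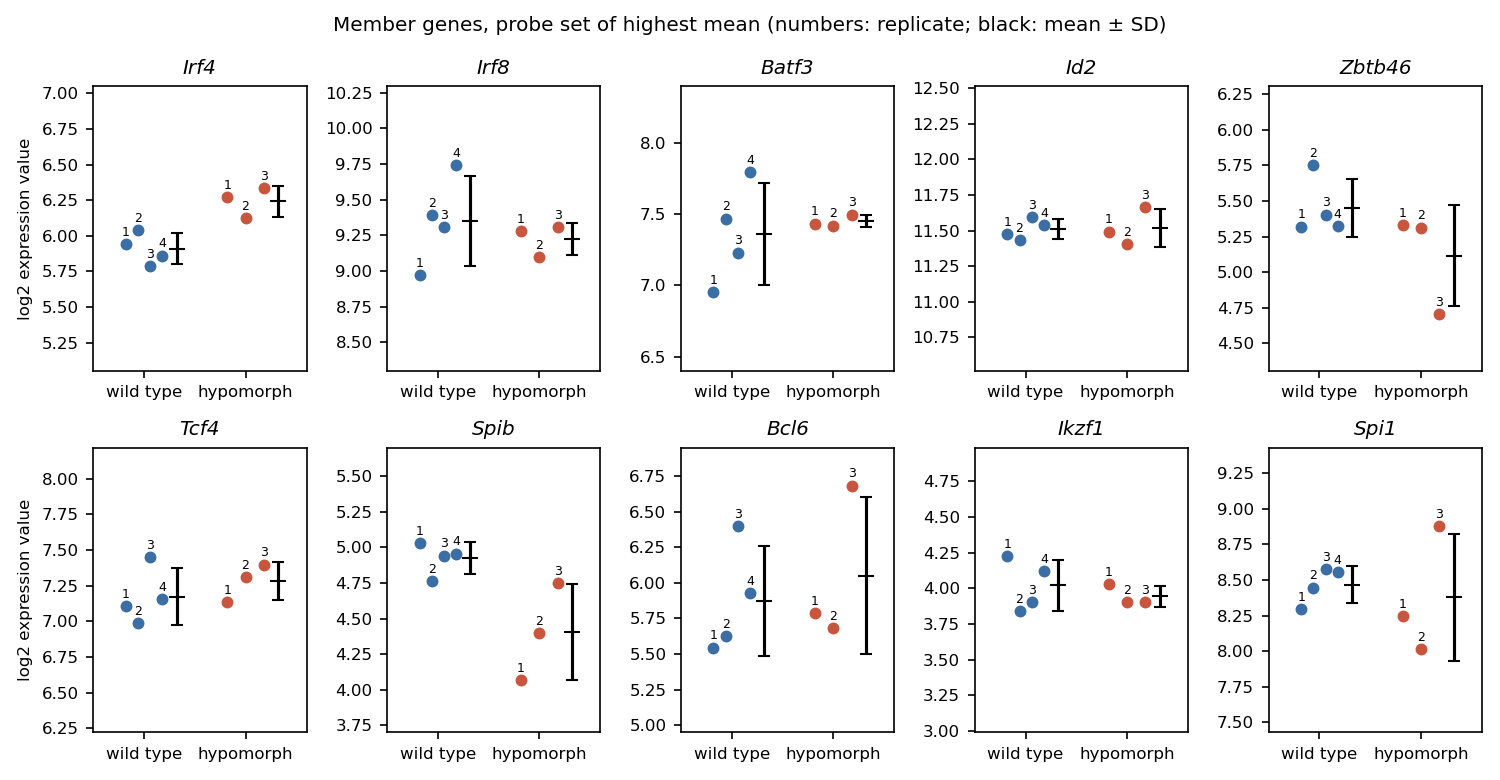
Log2 expression value of each member gene (y axis) on the 4 wild-type and 3 hypomorph arrays, for the probe set of highest mean. Numbers are replicates, black bars the mean ± SD, and every panel covers the same height in log2 units; Irf4 and Spib are the genes whose groups do not overlap.

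Irf4, an interferon regulatory factor of the CD11b lineage that also drives plasma cell differentiation, showed the clearest difference in the upward direction. Its probe set 1421173_at read 5.94, 6.04, 5.79 and 5.86 on the wild-type arrays and 6.27, 6.12 and 6.33 on the hypomorph arrays. All 3 hypomorph arrays lay above all 4 wild-type arrays, hypomorph replicate 2 by the least. The level was 1.26-fold higher in the hypomorph, a log2 difference of 0.33 with a 95% confidence interval from 0.13 to 0.54 and a limma adjusted p = 0.644. An exact two-sided permutation test gave p = 0.0286, its floor for groups of 4 and 3 arrays. The other Irf4 probe set, 1421174_at, read 3.14 to 3.63 and lay below the lower quartile of the array on 6 of the 7 arrays. Its difference was 0.11 (-0.14 to 0.37), and -0.01 without hypomorph replicate 3.

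Plasma cells are another source of Irf4 transcripts, and their markers read on the same side. Of 5 measured markers 5 had a positive difference, with a median of 0.28, and 1 had an unadjusted p under 0.05. Jchain, the joining chain of secreted IgM and IgA, read 9.13, 8.48, 9.36 and 9.67 on the wild-type arrays and 9.56, 9.61 and 10.56 on the hypomorph arrays. Sdc1, which encodes the plasma cell surface protein CD138, read 3.88 to 4.18 on the wild-type arrays and 4.92, 4.09 and 4.88 in the hypomorph, below the array medians throughout. Hypomorph replicate 3 was thus highest for Irf4 and Jchain, and the groups overlapped for both markers. The summed linear level of the 5 markers was 2238 to 3196 on the wild-type arrays and 2838 to 3911 in the hypomorph, and 1 of them, Tnfrsf17, was under the lower quartile on 6 arrays. Over the 7 arrays Irf4 and the mean plasma cell level had a Pearson r = 0.627 (exact permutation p = 0.125) and a Spearman rho = 0.679 (exact permutation p = 0.110), or r = 0.528 without wild-type replicate 2 and hypomorph replicate 3. The mean plasma cell log2 level was 6.36 to 6.72 on the wild-type arrays and 6.75 to 7.16 on the hypomorph arrays, without overlap. The basophil and mast cell marker level was lower on all hypomorph arrays than on all wild-type arrays. With Irf4 it had r = -0.764 (exact permutation p = 0.0496) and a Spearman rho = -0.750 (exact permutation p = 0.0663). Without wild-type replicate 4 and hypomorph replicate 3 that r was -0.633. Irf4, the plasma cell level and this level all separated the groups, and the pairings ignored the group. The r of Irf4 with either level therefore carries the group difference, and its p is no test of a relation within the groups. Of 8 measured CD11b lineage markers 7 also had a positive difference, with a median of 0.19 and 0 at an unadjusted p under 0.05. Irf4 and their mean level had a Pearson r = 0.306 (exact permutation p = 0.482) and a Spearman rho = 0.357 (exact permutation p = 0.444). Without hypomorph replicates 2 and 3 that r was -0.431. The part of any of these cell types in the Irf4 difference was not tested.

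The window just before the Irf4 start is shown because Irf4 and Spi1 products act on shared sites and Irf4 is the member with the smallest p. It is given from RefSeq on GRCm38.p6 (chr13:30748983-30749232, plus strand, the 250 bases before the start, 5′ to 3′). Capitals mark an Ets core, GAGGAA read on the opposite strand, the letters bound by PU.1 and Spi-B.
Irf4: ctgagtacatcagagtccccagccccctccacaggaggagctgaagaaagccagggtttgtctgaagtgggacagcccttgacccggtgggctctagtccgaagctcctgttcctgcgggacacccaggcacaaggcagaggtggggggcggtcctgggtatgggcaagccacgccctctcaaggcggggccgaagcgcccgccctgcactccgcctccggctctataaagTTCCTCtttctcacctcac

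Spib, an Ets factor of plasmacytoid dendritic cells and B cells, was the member that differed downward. It read 5.03, 4.76, 4.94 and 4.96 on the wild-type arrays and 4.07, 4.40 and 4.75 on the hypomorph arrays. Hypomorph replicate 3 lay only just under wild-type replicate 2, while hypomorph replicate 1 was the lowest of all. Its level was 1.43-fold lower in the hypomorph, with a log2 difference of -0.52 (95% confidence interval -0.87 to -0.16) and a limma adjusted p = 0.644. The exact two-sided permutation p was 0.0286. All 7 values were below the median of their array, and with arrays centred on their medians the groups overlapped (0 member probe sets without overlap downward). Without hypomorph replicate 1 the difference was -0.35.

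B cells carry Spib as well, and some of their markers were low on the same array. Ms4a1, which encodes CD20, read 6.72, 6.78, 6.92 and 7.03 on the wild-type arrays and 4.29, 6.56 and 6.46 on the hypomorph arrays. Hypomorph replicate 1 was lowest for both Ms4a1 and Spib, and the groups did not overlap for this Ms4a1 probe set, whereas they did for its other one. Cd79a, a chain of the B cell receptor, read 4.04 to 4.35 on the wild-type arrays and 3.27, 3.74 and 4.16 on the hypomorph arrays. Of 11 measured B cell markers, 8 had a negative difference, with a median of -0.16, 2 had an unadjusted p under 0.05, and the summed linear level was 463 to 556 on the wild-type arrays and 299 to 553 on the hypomorph arrays. The B cell factor genes Pax5 (3.75 to 4.10) and Ebf1 (2.87 to 3.14) were near or under the lower quartiles on all arrays. The relation of Spib to the mean B cell level (Pearson r = 0.864, exact permutation p = 0.0260; Spearman rho = 0.286, exact permutation p = 0.556) rested on hypomorph replicates 1 and 2, since r was -0.895 without them. Neutrophil markers, also lowest on hypomorph replicate 1 (10.20), had a larger r with Spib (0.920, exact permutation p = 0.0157; Spearman rho = 0.571, exact permutation p = 0.200), which was -0.221 without the same arrays. For monocyte markers r was 0.770 (exact permutation p = 0.0452; Spearman rho = 0.357, exact permutation p = 0.444), and 0.117 without wild-type replicate 4 and hypomorph replicate 1. The basophil and mast cell level had r = 0.693 with Spib (exact permutation p = 0.0792) and a Spearman rho = 0.786 (exact permutation p = 0.0480). That r was 0.861 without wild-type replicate 4 and hypomorph replicate 3. Both Spib and this level separated the groups, so these values carry the group difference. For plasmacytoid markers r was 0.542 (exact permutation p = 0.192; Spearman rho = 0.679, exact permutation p = 0.110), and 0.284 without wild-type replicates 3 and 4. The part of any of these cell types in the Spib difference was not tested.

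The Spib window is shown beside that of Irf4 because these genes differed in opposite directions. It comes from RefSeq on GRCm38.p6 (chr7:44532072-44532321, minus strand, the 250 bases before the start) and is in lower case throughout, since none of the searched letter strings is in it.
Spib: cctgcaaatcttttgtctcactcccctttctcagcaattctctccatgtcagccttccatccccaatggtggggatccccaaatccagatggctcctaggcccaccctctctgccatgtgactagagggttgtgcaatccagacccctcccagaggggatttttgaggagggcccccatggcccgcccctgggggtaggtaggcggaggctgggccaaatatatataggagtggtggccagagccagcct

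Tcf4, whose product E2-2 maintains plasmacytoid cells, had 6 probe sets that did not report the same difference. The largest was that of 1424089_a_at, which read 5.57, 5.70, 6.03 and 5.59 on the wild-type arrays and 6.28, 6.00 and 6.10 on the hypomorph arrays. Wild-type replicate 3 lay above hypomorph replicate 2, so the groups overlapped. The log2 difference was 0.41 (0.11 to 0.70), 1.32-fold higher, with a limma adjusted p = 0.644. The probe set of highest mean, 1416723_at, read 7.10, 6.99, 7.45 and 7.16 on the wild-type arrays and 7.14, 7.31 and 7.40 on the hypomorph arrays, a difference of 0.11 (-0.17 to 0.39), which was 0.0448 without wild-type replicate 2 and 0.20 without wild-type replicate 3. The differences of 1416724_x_at, 1434149_at and 1434148_at were 0.20, 0.12 and -0.05, and 1416725_at was below the lower quartile on all 7 arrays. Wild-type replicate 3 was the highest wild-type array for all of the 5 brighter probe sets. Without that array the groups did not overlap, upward, for 5 of the 22 member probe sets in place of 2. The mean over the 6 probe sets differed by 0.14 (-0.07 to 0.35). The probe set of highest mean and the CD11b lineage marker level had a Pearson r = 0.883 (exact permutation p = 0.0105) and a Spearman rho = 0.821 (exact permutation p = 0.0341). That r was 0.983 without hypomorph replicates 2 and 3. Adjusted over the 130 pairs of member and marker list, these p were 0.342 for r and 0.454 for rho. With the plasmacytoid marker level r was 0.269 (exact permutation p = 0.533) and rho 0.393 (exact permutation p = 0.396). Without wild-type replicates 3 and 4 that r was -0.245. The part of these cell types in the Tcf4 values was not tested.

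**Figure D2:**
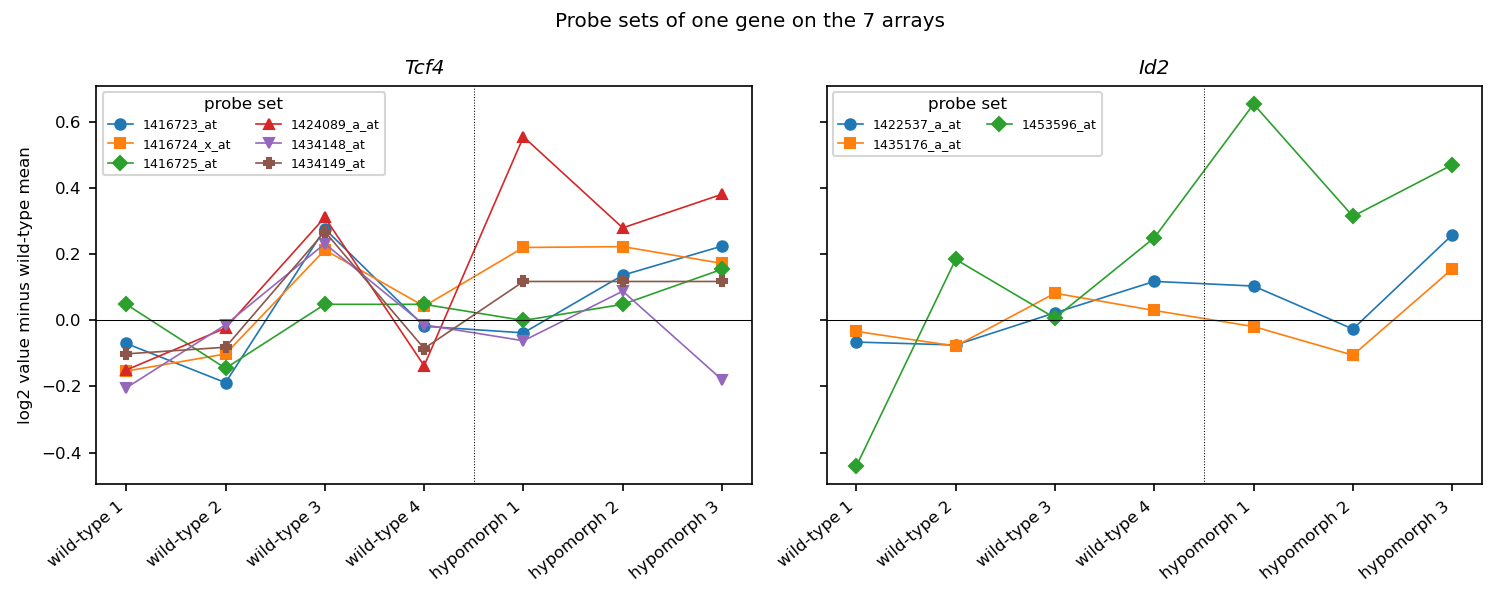
Probe sets of Tcf4 (left) and Id2 (right) on the 7 arrays, each as the log2 value minus its wild-type mean (y axis). Wild-type replicate 3 is high for most Tcf4 probe sets, and 1424089_a_at and 1453596_at are the probe sets that depart from the others of their gene on the hypomorph arrays.

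Other genes of plasmacytoid cells gave no common direction. Of 8 measured markers, 3 had a positive difference and the median was -0.08, and 0 had an unadjusted p under 0.05 in the limma fit. Bst2, a surface protein of plasmacytoid cells that interferon also induces, read 7.70 to 7.96 on the wild-type arrays and 8.32, 7.98 and 7.84 on the hypomorph arrays. Tlr9, the sensor of unmethylated DNA, read 3.28 to 3.73 on the 7 arrays, near the lower quartiles. Klk1, also a kallikrein of glandular tissue, read 3.13, 4.07, 6.47 and 7.27 on the wild-type arrays and 2.76 to 3.73 in the hypomorph, a difference of -2.01. Its other probe sets differed by -2.16, with a like order of the arrays, and by -0.03. Without Klk1, a choice made after its values were seen, the mean level of the other 7 markers was 4.89 to 5.13 on the wild-type arrays and 4.86 to 5.10 in the hypomorph, so these ranges overlapped.

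Irf8, the interferon regulatory factor of the CD8 lineage and of plasmacytoid cells, varied more within wild type than between the groups. Its probe set 1416714_at read 8.97, 9.39, 9.30 and 9.74 on the wild-type arrays and 9.28, 9.10 and 9.30 on the hypomorph arrays. The hypomorph arrays fell inside the wild-type range, and wild-type replicates 1 and 4 were its ends. The difference was -0.13 (-0.52 to 0.26), or 0.0035 without wild-type replicate 4, and that of the other probe set, 1448452_at, was -0.00 (-0.46 to 0.46). Both intervals include 0 and reach to differences of either sign.

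Batf3, an AP-1 family factor needed for the CD8 lineage, had the same ends. It read 6.95, 7.47, 7.23 and 7.80 on the wild-type arrays and 7.43, 7.42 and 7.50 on the hypomorph arrays. Again wild-type replicate 1 was lowest and replicate 4 highest, and the 3 hypomorph arrays lay close together, at 7.45 ± 0.0413 (SD, n = 3). The difference was 0.09 (-0.33 to 0.51), and -0.05 without wild-type replicate 1. Over the 7 arrays Batf3 and Irf8 had a Pearson r = 0.857 (exact permutation p = 0.0313) and a Spearman rho = 0.793 (exact permutation p = 0.0397). It rested on wild-type replicates 1 and 4, since r was 0.0505 without them. Adjusted over the 45 pairs of members, these p were 0.284 for r and 0.446 for rho.

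The markers of the CD8 lineage and of red pulp macrophages ran alongside these genes. Those of T cells and of natural killer and cytotoxic cells ran opposite to them. The mean level of 12 CD8 lineage markers was 6.07, 6.23, 6.38 and 6.50 on the wild-type arrays and 6.39, 6.26 and 6.39 in the hypomorph, so wild-type replicates 1 and 4 were its ends too. Of these markers 9 had a positive difference, the median was 0.05, and 1 (Fzd1, under the lower quartile) had an unadjusted p under 0.05. Irf8 and this level had a Pearson r = 0.799 (exact permutation p = 0.0365) and a Spearman rho = 0.577 (exact permutation p = 0.187), and r = 0.947 without wild-type replicates 1 and 2. For Batf3 and this level r was 0.790 (exact permutation p = 0.0298) and rho 0.750 (exact permutation p = 0.0663), with r = 0.640 without those arrays. The mean T cell level was 7.58, 6.79, 7.27 and 6.94 in wild type against 7.25, 7.43 and 7.05 in the hypomorph. It had a Pearson r = -0.807 with Irf8 (exact permutation p = 0.0262; Spearman rho = -0.901, exact permutation p = 0.00952) and -0.746 with Batf3 (exact permutation p = 0.0488; Spearman rho = -0.857, exact permutation p = 0.0238), or -0.871 and -0.750 without wild-type replicates 1 and 2. The mean level of 11 red pulp macrophage markers was 10.34, 11.39, 10.62 and 11.49 on the wild-type arrays and 11.36, 11.10 and 11.17 in the hypomorph, with a summed linear level of 24739 to 42335 and 36471 to 43258. Batf3 and that level had the smallest p of the 130 pairs of member and marker list, with a Pearson r = 0.916 (exact permutation p = 0.00238) and a Spearman rho = 0.893 (exact permutation p = 0.0123), and r = 0.646 without wild-type replicates 1 and 3. For Irf8 and that level r was 0.701 (exact permutation p = 0.0833) and rho 0.793 (exact permutation p = 0.0397), with r = 0.844 without those arrays. Natural killer and cytotoxic cell markers had r = -0.724 with Irf8 (exact permutation p = 0.0583) and -0.723 with Batf3 (exact permutation p = 0.0631). Their rho were -0.811 (exact permutation p = 0.0349) and -0.821 (exact permutation p = 0.0341). Without wild-type replicates 1 and 2 their r were -0.683 and -0.629. None of the 130 pairs passed the Benjamini-Hochberg adjustment, where the lowest adjusted p was 0.310, and 14 had an unadjusted p under 0.05 for r. The part of these cell types in the values of Irf8 and Batf3 was not tested.

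**Figure D3:**
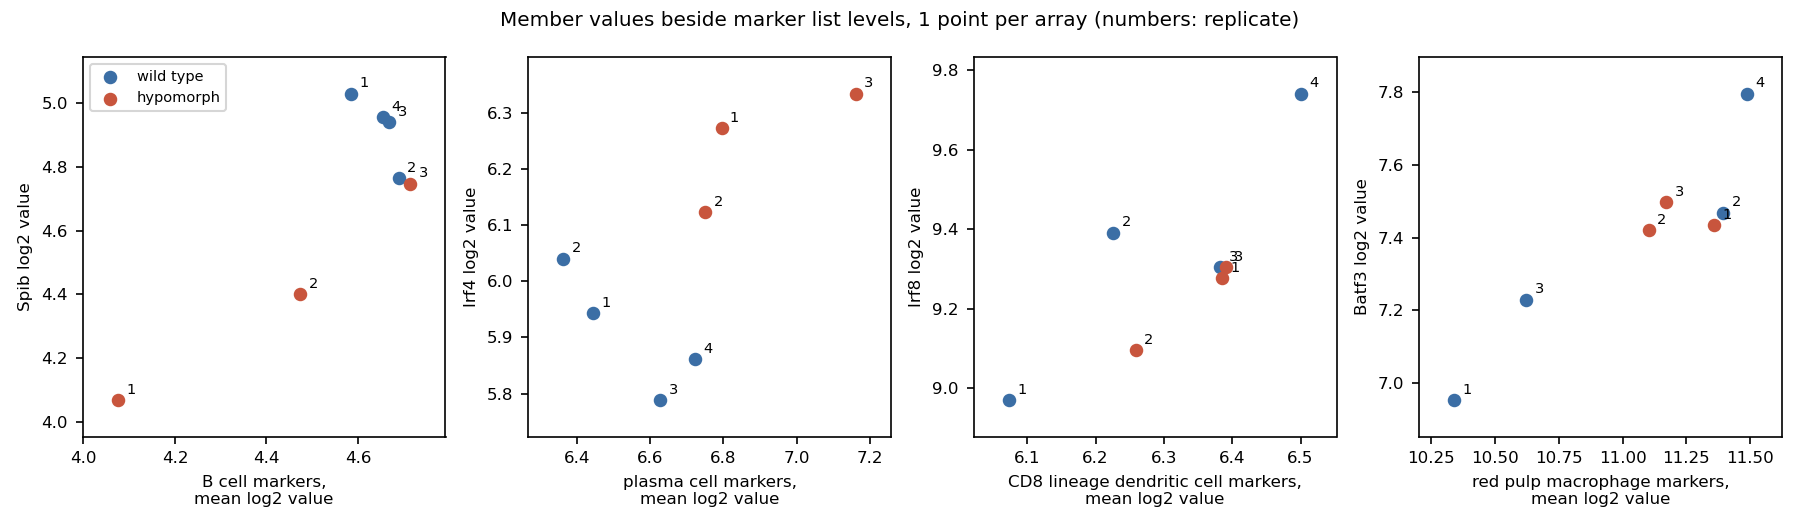
Log2 value of Spib, Irf4, Irf8 and Batf3 (y axes) against the mean log2 level of a marker list (x axes), 1 point per array, numbered by replicate. Hypomorph replicate 1 is low for Spib and B cell markers, and wild-type replicates 1 and 4 are the ends for Irf8 with CD8 lineage markers and for Batf3 with red pulp macrophage markers.

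The windows before the starts of Irf8 and Batf3 are shown because of their r of 0.857, which rested on wild-type replicates 1 and 4. Both are from RefSeq on GRCm38.p6, the 250 bases before the start, at chr8:120736108-120736357 (plus strand) for Irf8 and chr1:191098164-191098413 (plus strand) for Batf3. Capitals mark gamma-activated sites, TTCNNNGAA, letters that STAT factors and the Bcl6 product both bind, and in Batf3 also an Ets core. A second Irf8 window (chr8:120738389-120738638, plus strand), not shown, holds neither of these but an E-box, CAGGTG.
Irf8: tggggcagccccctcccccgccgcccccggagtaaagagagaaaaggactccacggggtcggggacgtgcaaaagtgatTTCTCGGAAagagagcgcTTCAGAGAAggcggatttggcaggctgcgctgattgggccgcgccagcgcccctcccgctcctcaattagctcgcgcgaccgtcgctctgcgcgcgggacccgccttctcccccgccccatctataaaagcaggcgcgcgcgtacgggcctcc
Batf3: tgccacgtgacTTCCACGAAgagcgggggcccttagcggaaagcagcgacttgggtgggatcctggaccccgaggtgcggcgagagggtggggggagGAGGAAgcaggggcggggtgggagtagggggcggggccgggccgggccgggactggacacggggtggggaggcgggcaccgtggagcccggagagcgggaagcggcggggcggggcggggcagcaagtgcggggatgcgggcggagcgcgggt

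These letters were searched on both strands in the 250 bases before each listed start, with 11 windows for 8 of the members, Tcf4 and Spi1 having none in the table. The gamma-activated site was in 4 of the 11 windows, the shown ones of Irf8 and Batf3 and both of Bcl6, against 7.02% of 32851 windows of all genes. The Ets core GAGGAA was in 3 windows, of Irf4, Batf3 and Bcl6, against 23.3% of all windows. The composite of GGAA and GAAA with any 2 bases between, bound by PU.1 or Spi-B together with Irf4 or Irf8, and able to overlap the Ets core, was in 1 (Bcl6) against 2.30%. The AP-1 string TGANTCA, a Batf3 partner site, was in 1 (Zbtb46) against 6.75%. The E-box CAGGTG of E proteins was in 2 (the Irf8 window not shown, and Zbtb46) against 17.2%. A GAAA pair with any 2 bases between, of interferon regulatory factors, and a kappaB site of NF-kB were in 0 member windows, against 2.98% and 4.11% of all. A match here is only a match of letters.

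Id2, the inhibitor of E proteins that permits the CD8 lineage and natural killer cells, was bright with 2 of its 3 probe sets and dimmer with the other. The dimmer one, 1453596_at, read 7.88, 8.51, 8.33 and 8.57 on the wild-type arrays and 8.98, 8.64 and 8.79 on the hypomorph arrays. All hypomorph arrays lay above all wild-type arrays, hypomorph replicate 2 by only a little. The difference was 0.48 (0.08 to 0.88), 1.39-fold higher, with an unadjusted limma p = 0.0251, an adjusted p = 0.644 and an exact two-sided permutation p of 0.0571. The bright probe sets had smaller differences. The probe set 1422537_a_at read 11.38, 11.37, 11.47 and 11.56 on the wild-type arrays and 11.55, 11.42 and 11.70 on the hypomorph arrays, a difference of 0.11 (-0.10 to 0.32). The difference of 1435176_a_at was 0.01 (-0.18 to 0.20). Both intervals overlapped that of the dimmer one, and the probe sets were not tested against each other. Natural killer and cytotoxic cell markers, with a mean level of 8.50 to 9.08 on the wild-type arrays and 8.66 to 8.95 in the hypomorph, overlapped between the groups.

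Bcl6, a transcriptional repressor needed by the CD8 lineage and by germinal centre B cells, had the largest SD over the 7 arrays among the members. Its probe set 1421818_at read 5.55, 5.63, 6.40 and 5.93 on the wild-type arrays and 5.79, 5.68 and 6.68 on the hypomorph arrays. Replicate 3 was the highest in both groups. The difference was 0.18 (-0.50 to 0.85), and -0.14 without hypomorph replicate 3. The other probe set, 1450381_a_at, read 4.15 to 4.28 on all 7 arrays and differed by 0.04 (-0.10 to 0.18). The genes most like Bcl6 over the 7 arrays were Reep3, Syk and Wdr26, with Pearson r of 0.975, 0.974 and 0.969 among 10367 probe sets searched.

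Zbtb46, the factor that marks conventional dendritic cells among myeloid cells and is also present in erythroid progenitors and endothelium, was dim on this array. Its brightest probe set, 1429168_at, read 5.32, 5.75, 5.40 and 5.32 on the wild-type arrays and 5.33, 5.31 and 4.70 on the hypomorph arrays. Hypomorph replicate 3 alone was low, and the other hypomorph arrays were level with wild-type replicates 1 and 4. The difference was -0.33 (-0.75 to 0.08), and -0.13 without hypomorph replicate 3. Its other probe sets differed by -0.06 and -0.03, the latter below the lower quartile on all 7 arrays. The mean level of 9 erythroid markers was 8.12, 8.43, 7.77 and 7.78 on the wild-type arrays and 7.31, 8.54 and 5.97 in the hypomorph, so it was lowest on the same array as Zbtb46. Their summed linear level was 5166 to 8629 on the wild-type arrays and 2037 to 7521 in the hypomorph, with only the Hba-a1 probe set under the lower quartile. The relation had a Pearson r = 0.851 (exact permutation p = 0.0429) and a Spearman rho = 0.143 (exact permutation p = 0.783), with r = 0.704 without hypomorph replicates 2 and 3. Plasma cell markers ran opposite to Zbtb46, with a Pearson r = -0.901 (exact permutation p = 0.00813), a Spearman rho = -0.643 (exact permutation p = 0.139) and r = -0.118 without wild-type replicate 2 and hypomorph replicate 3. The genes most like Zbtb46 were Thoc1, Zwint and Srsf10, with r of 0.998, 0.998 and 0.993, and those most like Spib were Dennd11, Pacc1 and Acadl, with r of 0.989, 0.971 and 0.965. The part of erythroid or plasma cells in the Zbtb46 values was not tested.

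The general hematopoietic factors did not separate the groups. Spi1, whose product PU.1 is needed for the development of dendritic cells and macrophages, read 8.29, 8.45, 8.58 and 8.56 on the wild-type arrays and 8.25, 8.01 and 8.88 on the hypomorph arrays. Both the lowest and the highest values were hypomorph arrays, and the difference was -0.09 (-0.54 to 0.36), or 0.09 without hypomorph replicate 2. Ikzf1, which encodes the zinc finger factor Ikaros, read 4.22, 3.84, 3.90 and 4.12 on the wild-type arrays and 4.03, 3.90 and 3.90 on the hypomorph arrays. Its only probe set was below the array median throughout, and it differed by -0.08 (-0.32 to 0.17), by -0.00886 without wild-type replicate 1 and by -0.137 without wild-type replicate 2.

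**Figure D4:**
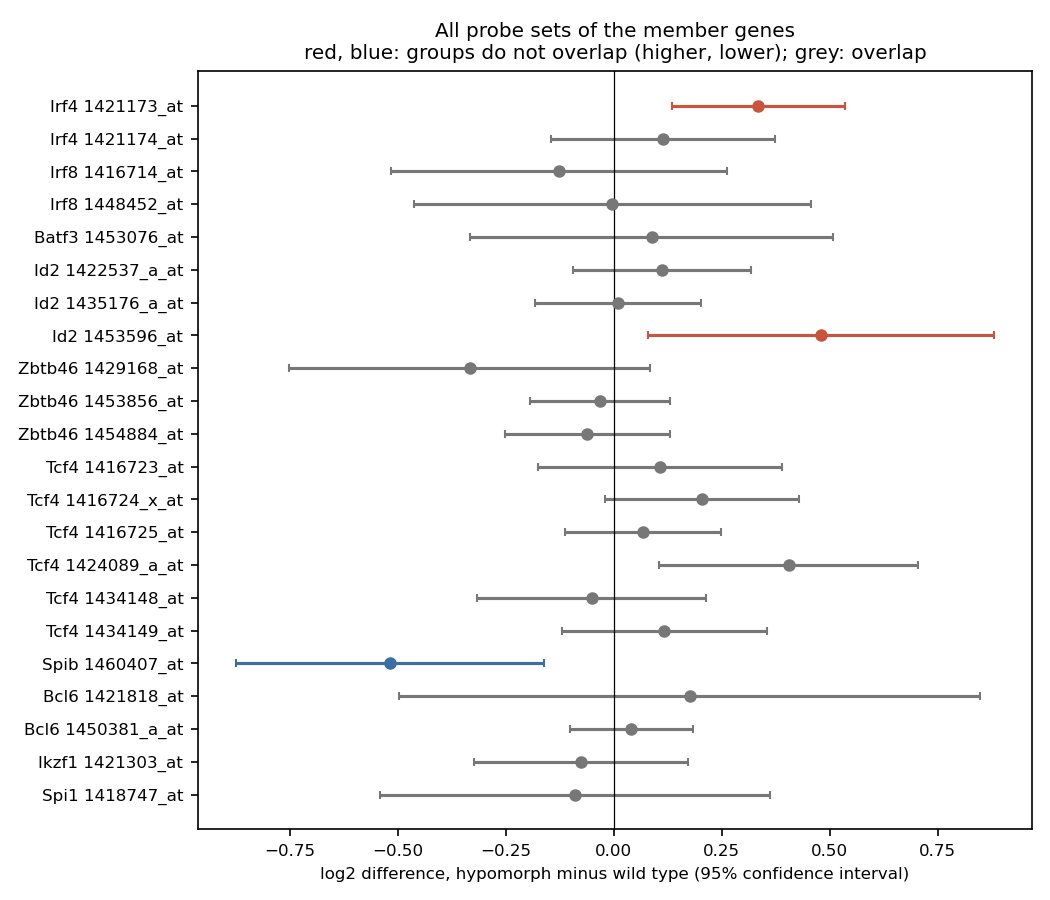
Log2 difference between hypomorph and wild type (x axis) with its 95% confidence interval from limma for each of the 22 member probe sets. The 3 coloured points are the probe sets whose groups do not overlap, Irf4 and Id2 above 0 and Spib below.

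Regulators outside the member list were drawn from 2 lists. Of 25 other dendritic cell regulators measured, 14 had a positive and 11 a negative difference, with a median of 0.06. In the limma fit 5 had an unadjusted p under 0.05, against 7.69% of all probe sets, and 0 an adjusted p under 0.05. The groups did not overlap for 3, against 5.57% of all probe sets. Bcl11a, a zinc finger factor required for plasmacytoid cells and B cells that also acts in the erythroid lineage, read 6.98, 7.29, 6.78 and 6.96 on the wild-type arrays and 5.90, 6.67 and 5.57 on the hypomorph arrays. Every hypomorph array was below every wild-type array, by a log2 difference of -0.96 (-1.54 to -0.38; limma adjusted p = 0.644), and its other probe set differed by -0.31. Replicates 1 and 3 of the hypomorph, which were lowest for Bcl11a, were also lowest for the erythroid markers, whose part was not tested. Myb, a factor of progenitors, had a difference of -0.33 with all hypomorph arrays lower, and its other probe sets gave -0.27 and -0.06.

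Prdm1, which encodes Blimp-1 and acts beside Irf4 in plasma cells, read 6.83, 6.42, 6.83 and 6.52 on the wild-type arrays and 7.22, 6.96 and 7.00 on the hypomorph arrays. All hypomorph arrays were higher, by 0.42 (0.12 to 0.71; limma adjusted p = 0.644). Stat3, which relays Flt3 ligand signals to progenitors, differed by 0.34 (0.07 to 0.62), and 0.27 and 0.03 with its other probe sets. The remaining gene with an unadjusted p under 0.05 was Etv6, an Ets family repressor of hematopoietic stem cells, with a difference of 0.32 (0.04 to 0.60). Nfil3, which precedes Id2 in the CD8 lineage, differed by 0.77 with an interval that included 0 (-0.06 to 1.59).

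Among 18 measured paralogs and dimer partners of the members, 13 had a positive difference and the median was 0.09. Of these genes 1 had an unadjusted p under 0.05, against 7.69% of all probe sets. That gene was Irf5, a factor of macrophage cytokine induction, at 7.65 to 7.85 on the wild-type arrays and 8.59, 7.72 and 8.24 on the hypomorph arrays, a difference of 0.48 (0.05 to 0.92), or 0.10 with its other probe set. Without hypomorph replicate 1 it was 0.28 and without hypomorph replicate 2 it was 0.72. Hypomorph replicate 2 lay within the wild-type range. Spic, the Ets relative of Spi1 and Spib that red pulp macrophages require, read 10.43, 11.22, 10.74 and 11.47 on the wild-type arrays and 11.39, 11.29 and 11.61 on the hypomorph arrays. Its order in wild type was that of the red pulp macrophage level, and its difference was 0.47 (-0.09 to 1.03). Batf, the relative of Batf3 that can stand in for it, differed by 0.19 (-0.09 to 0.48), and Id3, the relative of Id2, by 0.23 (-0.02 to 0.48) without overlap.

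**Figure D5:**
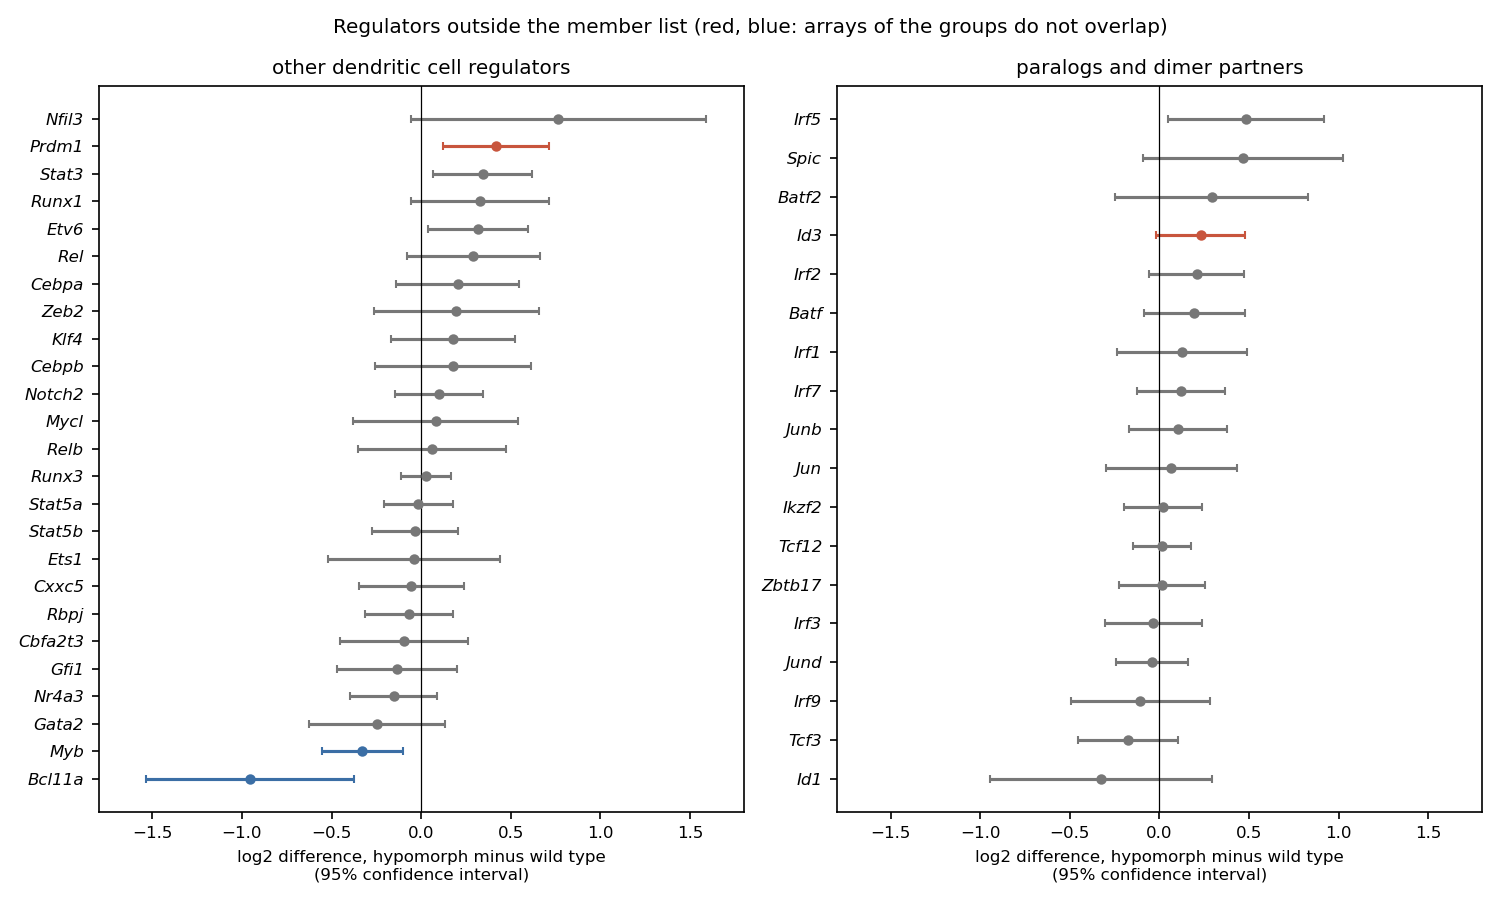
Log2 difference between hypomorph and wild type (x axis) with its 95% confidence interval for 25 other dendritic cell regulators (left) and 18 paralogs and dimer partners (right). Bcl11a and Myb are the genes below 0 and Prdm1 and Id3 those above 0 whose groups do not overlap.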

How the data were processed

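RNA of CD11c-enriched spleen cells was hybridized to 1 Affymetrix Mouse430A array per sample, per the labels' protocols. The authors deposited log2 values per probe set, and the submitters' processing notes name Affymetrix Power Tools. Its version, summary method, background correction and normalization were not given in the sources used. Values were used as deposited. Of 22690 probe sets, 64 controls and 1 without a value were left out, leaving 22625. Names came from the array's annotation, updated by Entrez identifier in a RefSeq table of GRCm38.p6; 20379 probe sets named 1 gene (20350 found in the table), 691 several and 1555 none.

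The group comparison used lmFit and eBayes of limma 3.58.1 (R 4.3.3; group means, no block), Benjamini-Hochberg adjusted over all 22625, beside a two-sided exact permutation test on the 35 possible splits. The threshold was 0.05. The fit was tested on simulated data. Correlations used all 5040 pairings of the arrays. Lists entered with 1 probe set a gene, that of highest mean. Named in other lists were up to 4 genes of smallest p and defining markers that bear on a member; Nfil3, Batf and other genes beyond this rule were picked with their values known. Genes most alike were taken by Pearson r for the 3 members of largest SD, among probe sets at or above the median level. Members and lists were chosen with earlier results of these data known. Alternatives were the variance model, scaling, array weights, a replicate block, 32 added to the linear value, a level filter, the mean over a gene's probe sets, and each array left out.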

Additional observations from a re-analysis of the deposited data

Results flagged for a closer look

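Of the 22 member probe sets, 3 had 1 wild-type array far from the other 3 relative to the group's range, where chance flags about 1 in 20 groups. Irf4 probe set 1421174_at read 3.14 on wild-type replicate 1 against 3.29 to 3.32 on the others, a spread below the lower quartile of the arrays. Tcf4 probe set 1416725_at read 2.34 on wild-type replicate 2 against 2.53 on the others, also below that quartile. Tcf4 probe set 1434149_at read 6.35 on wild-type replicate 3 against 5.98 to 6.00, and on the 3 hypomorph arrays it read 6.20 throughout (SD 0).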

How the results depend on the processing

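No alternative brought a member probe set to an adjusted p under 0.05 in limma (lowest 0.163), and 13 of the 22 kept their sign in every alternative while 9 reversed in some. With arrays centred on their medians, 0 member probe sets were lower without overlap, and with only probe sets at or above the median level 0 were lower without overlap and 0 lower at an unadjusted p under 0.05, since the Spib probe set is below that level. With the mean over the probe sets of a gene, 1 gene was higher at an unadjusted p under 0.05 and 0 higher without overlap. Leaving out each array, the probe sets higher at an unadjusted p under 0.05 numbered 1 to 4 (1 without hypomorph replicate 1), those lower 1 to 2, those higher without overlap 2 to 5 (5 without wild-type replicate 3), and those lower without overlap 1 to 2. Over all probe sets, the count at an unadjusted p under 0.05 ran from 870 to 2989 against 1739.

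The replicate block turned the sign of Irf8 1416714_at (0.0035), Irf8 1448452_at (0.12) and Cd3d (-0.0211). Quantile normalization turned Irf8 1448452_at (0.00583) and array weights turned Id2 1435176_a_at (-0.00855). Without 1 array, the lowest and highest differences were -0.0474 and 0.233 for Batf3, -0.0622 and 0.0681 for Id2 1435176_a_at, -0.15 and 0.12 for Irf8 1448452_at, -0.25 and 0.0035 for Irf8 1416714_at, -0.121 and 0.0260 for Tcf4 1434148_at, -0.0658 and 0.0166 for Zbtb46 1453856_at, -0.338 and 0.0942 for Spi1, -0.0104 and 0.210 for Irf4 1421174_at, and -0.14 and 0.36 for Bcl6 1421818_at. For markers they were -0.0652 and 0.205 for Bcl11b, -0.0561 and 0.248 for Cd3d, -0.0709 and 0.195 for Cd74, and -0.0976 and 0.179 for H2-Aa. Apart from the array left out, the cause was not tested. The replicate numbers were not taken as pairs, since no label says that they mark a shared animal, litter or day. Same-numbered arrays of the groups had correlations of deviations of 0.102, 0.0977 and 0.339, the last being the largest across the groups. Hypomorph replicate 1 correlated best with wild-type replicate 2 (0.207). These values cannot decide whether the numbers mark pairs. Under the block 2 member probe sets were higher and 1 lower at an unadjusted p under 0.05.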

Other observations

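Over the 7 arrays pooled, some members varied together. Bcl6 and Id2, both factors of the CD8 lineage, had a Pearson r of 0.933 (7 arrays; exact permutation p = 0.00298) and a Spearman rho = 0.857 (exact permutation p = 0.0238), and Id2 and Spi1 an r = 0.891 (exact permutation p = 0.00794) and a rho = 0.857 (exact permutation p = 0.0238). These values are for the probe set of highest mean, 1435176_a_at for Id2, with which replicate 3 was the highest of each group for Bcl6, Id2 and Spi1. With the other Id2 probe sets wild-type replicate 4 was the highest wild-type array. Without wild-type replicate 3 and hypomorph replicate 3 the r were 0.665 and 0.689. Of the 45 pairs of members, 5 had an unadjusted p under 0.05 for r and 0 passed after adjustment (lowest adjusted p = 0.134). Id2 and the erythroid marker level ran in opposite directions, with r = -0.860 (exact permutation p = 0.00933, adjusted over 130 pairs p = 0.342), rho = -0.893 (exact permutation p = 0.0123), and r = -0.499 without hypomorph replicates 2 and 3. Bcl6 and that level had r = -0.802 (exact permutation p = 0.0290), rho = -0.750 (exact permutation p = 0.0663), and r = -0.399 without the same arrays.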
